A study of Mus musculus with 2 samples.

Results

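The loci of 4 small nuclear RNA (snRNA) genes were examined in mouse embryonic stem cells: U1 and U2 on chromosome 11, the U2-like gene AC120136.3 on chromosome 1 and U11 on chromosome 4. They are 4 of the 1423 snRNA genes in the annotation, and each was taken with 5 kb on each side. They were chosen on LUZP1 and mock reads of the same libraries, so the values at these genes describe the choice and are not a test of it. Chromatin immunoprecipitation followed by sequencing had been made once with rabbit serum against LUZP1, a leucine zipper protein (4214959 mapped reads), and once without antibody according to the sample labels (mock, 2734938 reads). The series' design text describes the mock as made with GST. Both libraries came from E14, an embryonic stem cell line of strain 129P2/OlaHsd grown without feeder cells, at passages 25 to 30, from 300 µg of chromatin each. The labels name no genetic change and no treatment, and there was 1 library per group, so no difference has a replicate check and no p-value was computed. The series' title names ATAC, a histone acetyltransferase coactivator, and Mediator, the coactivator that contacts RNA polymerase II, together with non-coding RNA genes. Chromatin reads do not show transcript levels, so the cell type was not checked here against its marker genes.

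U1, U2 and U11 RNAs are parts of the spliceosome. U1 pairs with the 5′ splice site of an intron, U2 pairs with the branch point, and U11 takes the place of U1 at the rare introns of the minor spliceosome. Their genes are short, have no introns and are transcribed by RNA polymerase II from a promoter of their own kind. A proximal sequence element bound by the SNAPc complex sets the start, a distal element with an octamer bound by Oct-1 enhances transcription, and the Integrator complex cuts the RNA beyond its end, guided by a 3′ box just after the gene. Mouse U1 and U2 genes have many copies, most of them thought to be inactive.

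The sequences of the 4 genes are given first because they decide where reads of 36 bp can be placed. All are from mm9 (NCBIM37), 5′ to 3′ on the gene strand. U1 lies at chr11:87236369-87236532 (plus strand, 164 bp, in an intron of Tex14), U2 at chr11:101519552-101519742 (plus, 191 bp, in no other gene), AC120136.3 at chr1:72301582-72301772 (plus, 191 bp, in an intron of the long non-coding RNA gene D230017M19Rik) and U11 at chr4:131825995-131826128 (minus, 134 bp, in no other gene). Capitals mark the bases of U1 that pair with the 5′ splice site, those of U2 and AC120136.3 that pair with the branch point, and bases near the 5′ end of U11 that pair with the splice site of minor introns.
U1: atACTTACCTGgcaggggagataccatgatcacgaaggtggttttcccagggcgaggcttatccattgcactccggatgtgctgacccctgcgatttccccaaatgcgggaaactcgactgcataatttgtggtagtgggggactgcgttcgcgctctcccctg
U2: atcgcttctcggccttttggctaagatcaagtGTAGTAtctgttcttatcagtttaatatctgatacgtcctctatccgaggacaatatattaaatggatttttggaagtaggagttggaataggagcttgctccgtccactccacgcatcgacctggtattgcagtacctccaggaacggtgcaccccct
AC120136.3: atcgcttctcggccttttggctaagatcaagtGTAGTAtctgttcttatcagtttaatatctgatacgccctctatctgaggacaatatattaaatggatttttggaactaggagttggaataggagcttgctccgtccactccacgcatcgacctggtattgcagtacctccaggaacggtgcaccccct
U11: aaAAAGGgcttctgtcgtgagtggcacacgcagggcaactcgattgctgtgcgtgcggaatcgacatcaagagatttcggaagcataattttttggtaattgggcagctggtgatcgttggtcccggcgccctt
AC120136.3 differed from U2 at 3 of 191 positions, written as T69C, C78T and G109C with the U2 base first and positions counted from the first base of the gene. None of these touches the branch-point bases, and the 2 genes were 98.4% identical. The 250 bp before them were 54.6% identical over 282 aligned positions. The U1 sequence had 6 other exact copies among the annotated U1 genes and the U2 sequence had 3. The closest annotated relative of U11 was 88.8% identical.

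Of the 36-base sequences that lie wholly within the gene, 0% occurred once in the genome for U1 and for U2, 26.3% for AC120136.3 and 88.9% for U11. A read from inside U1 or U2 therefore could not be assigned to 1 copy by exact match. The stretches of 500 bp after the genes were unique at 100% of positions for U1 and AC120136.3, 92.2% for U2 and 92.6% for U11. Before the genes the shares were 98.4% for U1, 77.0% for U2, 85.6% for AC120136.3 and 100% for U11.

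**Figure D1:**
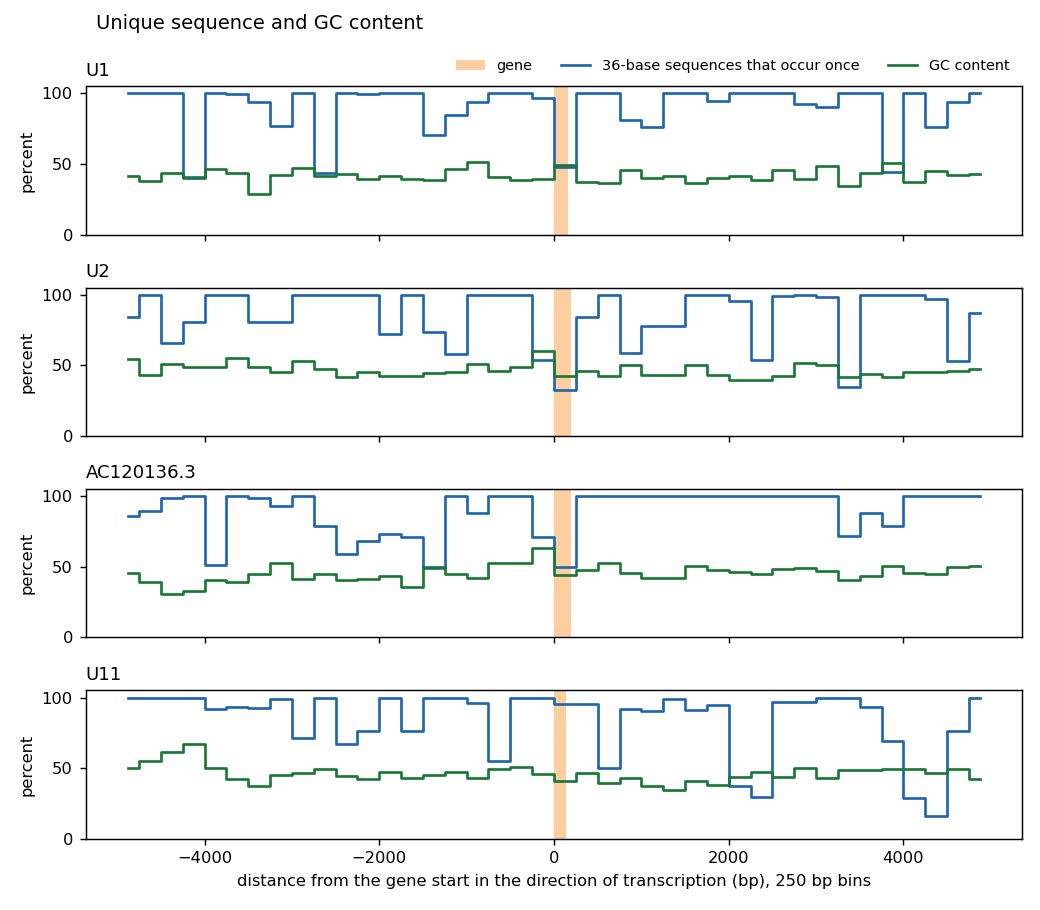
Percent of 36-base sequences that occur once in the genome (blue) and GC content in percent (green) in 250 bp bins, against the distance from the gene start in bp, for the 4 loci; the shaded stretch is the gene. The bin that starts at the gene drops to 47.6% unique at U1, 32.4% at U2 and 49.6% at AC120136.3, and stays at 95.6% at U11.

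A second annotated U1 gene lay 3849 bp after the start of the first (chr11:87240218-87240381, plus strand) and had the same 164 bases. The 300 bases from 250 before to 50 after each gene start were searched on both strands for the octamer ATGCAAAT and for ACCNTNA, which was picked as a part of the proximal element after the sequences had been seen. The promoters are shown so that the 2 U1 genes, with the same RNA, can be compared. Capitals mark the matches.
U1: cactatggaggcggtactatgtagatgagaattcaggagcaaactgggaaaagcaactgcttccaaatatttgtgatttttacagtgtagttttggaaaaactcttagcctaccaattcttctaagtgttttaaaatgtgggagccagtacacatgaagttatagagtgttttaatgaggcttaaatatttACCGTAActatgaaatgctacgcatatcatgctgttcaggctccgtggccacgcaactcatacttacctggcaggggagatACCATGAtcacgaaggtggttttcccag
second U1: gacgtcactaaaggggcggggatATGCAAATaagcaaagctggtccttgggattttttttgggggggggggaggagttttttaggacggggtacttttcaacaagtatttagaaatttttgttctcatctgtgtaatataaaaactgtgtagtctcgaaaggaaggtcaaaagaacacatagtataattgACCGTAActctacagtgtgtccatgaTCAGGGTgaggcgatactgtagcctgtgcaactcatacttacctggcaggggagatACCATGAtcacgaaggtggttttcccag
U2: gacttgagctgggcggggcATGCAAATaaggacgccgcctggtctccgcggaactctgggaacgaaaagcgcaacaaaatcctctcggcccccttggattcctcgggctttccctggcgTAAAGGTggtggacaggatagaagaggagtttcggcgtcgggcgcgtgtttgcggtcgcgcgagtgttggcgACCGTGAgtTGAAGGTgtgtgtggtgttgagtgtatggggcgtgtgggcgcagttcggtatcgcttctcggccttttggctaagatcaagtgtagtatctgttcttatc
AC120136.3: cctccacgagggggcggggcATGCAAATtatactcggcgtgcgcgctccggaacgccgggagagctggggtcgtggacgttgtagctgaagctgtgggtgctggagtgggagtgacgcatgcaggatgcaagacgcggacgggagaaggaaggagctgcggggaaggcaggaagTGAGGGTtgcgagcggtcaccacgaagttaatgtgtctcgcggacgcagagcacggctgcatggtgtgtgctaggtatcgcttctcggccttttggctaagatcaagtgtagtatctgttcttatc
U11: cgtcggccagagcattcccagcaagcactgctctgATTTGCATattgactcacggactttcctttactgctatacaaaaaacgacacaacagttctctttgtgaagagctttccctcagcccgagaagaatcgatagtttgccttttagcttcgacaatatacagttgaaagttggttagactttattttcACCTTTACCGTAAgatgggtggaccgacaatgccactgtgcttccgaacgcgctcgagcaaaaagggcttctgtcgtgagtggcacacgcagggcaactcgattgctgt
The octamer was found at U2, AC120136.3, U11 and the second U1 gene, with its first base 231, 230, 215 and 227 bp before the start. It was on the gene strand in each except U11. The first U1 gene did not hold these letters in this window. Of all 1423 snRNA promoters 4.08% held the octamer, as did 1.73% of the 22367 protein-coding promoters. Matches to ACCNTNA on the gene strand began 59 bp before the start at U1, U2 and U11, with another at 53 bp for U11, and 60 bp before it at the second U1 gene. AC120136.3 had a match on the opposite strand alone. The letters are frequent, with 40.5% of snRNA promoters and 30.2% of protein-coding promoters holding them somewhere. These shares include matches inside the gene, since the window reaches 50 bases into it. Both U1 genes have such a match, 22 bp after the first base, and 68.0% of U1 genes held the letters somewhere. Between 65 and 50 bp before the start on the gene strand they were in 2.81% of snRNA genes (40 of 1423), including 4 of 206 U1 genes, 5 of 51 U2 genes and 1 of 5 U11 genes. The share among protein-coding promoters was 0.809%. The 2 U1 promoters were 60.5% identical over 342 aligned positions, although the RNAs were the same.

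The 50 bases after each gene were searched on the gene strand for the 3′ box, as GTTTAAANNNAGA with up to 3 further bases after GTTT.
U1: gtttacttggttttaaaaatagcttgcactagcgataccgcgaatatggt
U2: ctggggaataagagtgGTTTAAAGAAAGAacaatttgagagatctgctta
AC120136.3: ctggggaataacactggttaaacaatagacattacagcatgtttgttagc
U11: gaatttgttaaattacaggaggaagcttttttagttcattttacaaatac
U2 alone of the 4 held it, 17 bp after the gene (capitals), and 0.562% of all snRNA genes did (8 of 1423). The other 3 genes lack only these exact letters in this window.

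Every read was lengthened to 200 bp in its own direction and counted in each stretch it touched. LUZP1 counts were multiplied by 0.649, the number of mock reads over that of LUZP1 reads, before division by the mock count. The values in brackets after a ratio are its exact 95% interval (Clopper-Pearson, conditional on the summed count), which covers counting error only. From 500 bp before the gene to 500 bp after it, called the locus window here, U1 had 16 LUZP1 reads against 4 in the mock, which scales to 2.60 (0.837 to 10.7). U2 had 9 and 2, for a ratio of 2.92 (0.604 to 27.8). AC120136.3 had 20 and 7, at 1.85 (0.753 to 5.19). U11 had 12 and 3, at 2.60 (0.700 to 14.3). After scaling, the LUZP1 count was above the mock at every one of the 4 genes. The genes were chosen on these reads, so the shared direction describes the choice. For each gene alone a difference was not detectable at this depth, and the intervals are too wide to compare the factors. Together the loci held 57 and 16 reads, a ratio of 2.31 (1.31 to 4.31). GC content moved with the libraries: over 1 kb windows of the genome with the GC content of these loci, the LUZP1 to mock ratio was 0.998 for U1, 1.17 for U2, 1.20 for AC120136.3 and 1.11 for U11. Scaled to such windows, the ratio of the 4 loci was 2.08 (1.18 to 3.88).

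**Figure D2:**
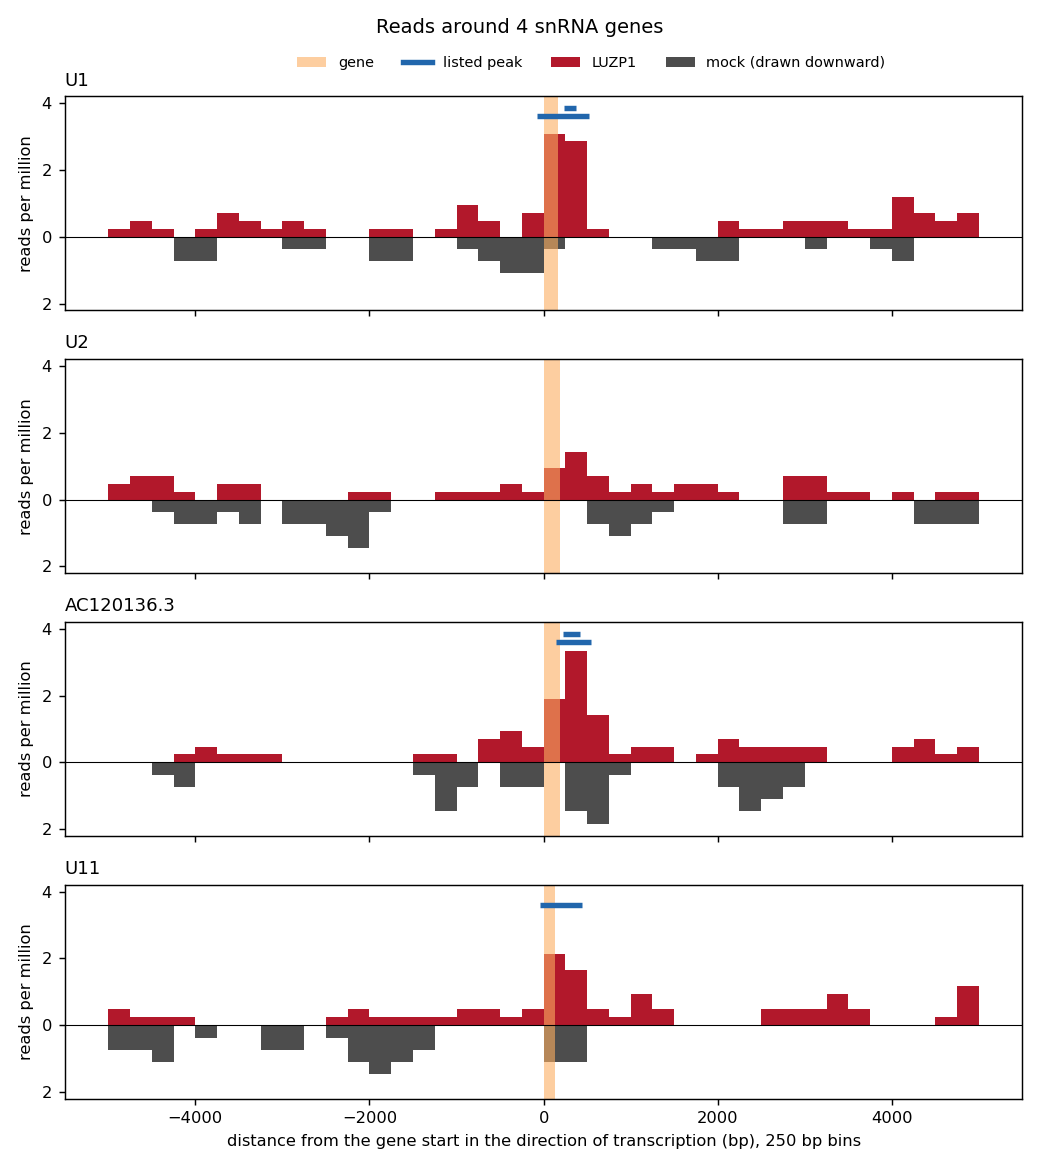
Depth-normalised reads (RPM) in 250 bp bins (LUZP1 upward, mock downward on the same scale) against the distance from the gene start in bp, with the gene shaded and the authors' listed peaks as blue bars. The highest LUZP1 bin lies within 500 bp after the gene start at all 4 genes, and no listed peak is drawn at U2 because there is none.

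Within the 10 kb the extended LUZP1 reads were most numerous in the first 500 bp after the gene start. That stretch holds the gene and sequence beyond its end. Of the 40 bins of 250 bp at each locus, the fullest was the bin from the start at U1, with 13 LUZP1 and 1 mock reads, and at U11, with 9 and 3. It was the next bin, 250 to 499 bp after the start, at AC120136.3 with 14 and 4 and at U2 with 6 and 0. The median bin held 1 LUZP1 read at every locus and 0 mock reads. In the 34 bins of each locus that begin more than 500 bp before the start or at least 1000 bp after it, the highest LUZP1 count was 5 at U1 and U11 and 3 at U2 and AC120136.3. Across the genome 0.00596% of bins held 13 or more LUZP1 reads, 0.00522% held 14 or more, 0.0128% held 9 or more and 0.218% held 6 or more. The fullest bin of U2 thus held the fewest LUZP1 reads of the 4. These shares leave out the mock, and the genes were chosen on these reads, so the shares describe the choice.

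A bin was called where its interval lay above 1. This was so for 3 of the 160 bins, against 0.00974% of the 10619573 bins of the genome. The genes were chosen on these reads, so nothing is read from the comparison. The called bins were the first 2 after the U1 start, with 13 and 1 and with 12 and 0 reads, and the first after the AC120136.3 start, with 8 and 0. With reads counted by their 5′ ends alone, no bin was called. A bin below 1 was not found at the 4 loci, against 0.545% of the genome's bins. The 2 directions are uneven by depth, since 8 LUZP1 reads against 0 are needed for a bin above 1 but only 4 mock reads against 0 for one below.

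The reads were then divided into 500 bp before the gene, the gene, and 500 bp after it. Upstream the 4 loci had 12 reads from LUZP1 and 6 from the mock, for a ratio of 1.30 (0.451 to 4.21). The 6 mock reads were 4 at U1, 2 at AC120136.3 and 0 at U2 and U11, beside 3, 4, 2 and 3 LUZP1 reads. Over the genes they had 24 and 1, a ratio of 15.6 (2.54 to 640) that rests on a single mock read. Downstream they had 48 and 11, a ratio of 2.83 (1.45 to 6.05). An extended read can count in 2 neighbouring stretches, and most reads over the genes began outside them. The most frequent distance between opposite-strand reads was 85 bp for LUZP1 and 162 bp for the mock. Lengthening to 200 bp thus carried reads past this distance, by more for LUZP1, and its part in the ratio over the genes was not tested. At U1 the LUZP1 library was below the mock upstream, with 3 and 4 reads (ratio 0.487, 0.0713 to 2.88), and above it downstream, with 15 and 1 (ratio 9.73, 1.50 to 410). Among the 4, U1 alone had a downstream interval above 1, a call met by 0.211% of all snRNA genes. With plus and minus reads from 1 likely fragment counted once it had 10 and 1 (6.19, 0.880 to 268), an interval that includes 1. Downstream counts were 7 and 2 at U2 (ratio 2.27, 0.432 to 22.4), 16 and 5 at AC120136.3 (2.08, 0.727 to 7.25) and 10 and 3 at U11 (2.16, 0.557 to 12.2). Without U1 the downstream ratio of the other 3 loci was 2.14 (1.03 to 4.87), while upstream they had 9 and 2 reads and a ratio of 2.92 (0.604 to 27.8). The lower ratio upstream than downstream over the 4 loci thus rested on U1.

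**Figure D3:**
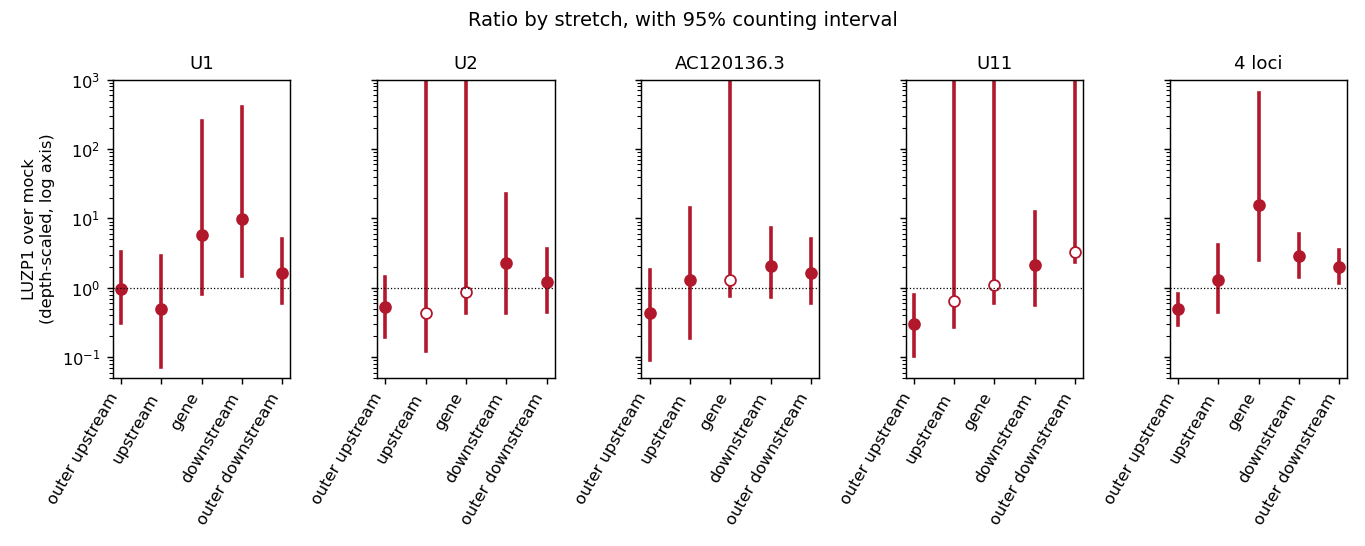
Depth-scaled ratio of LUZP1 to mock reads (log axis) in 5 stretches of each locus and of the 4 loci together, with the 95% counting interval as a line. The outer stretches lie 1 to 5 kb from the gene; open circles are ratios set against 3 reads because the mock had 0, and their lines have no upper end. The downstream interval lies above 1 for U1 and for the 4 loci together.

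Single reads show where this signal lay. Within 500 bp after the genes 40 LUZP1 and 8 mock reads had their 5′ end, and 32 and 4 of these lay in the first 250 bp. Inside the genes there were 6 and 0, and in the 500 bp before them 8 and 5. At U1, 5 LUZP1 reads on the gene strand began 68, 82, 86, 117 and 122 bp after the last base of the gene, and reads on the opposite strand began 22, 69, 161, 163, 194, 209 and 487 bp after it. The mock had none there. The stretch from the gene-strand read at 68 bp to the opposite-strand read at 209 bp is the narrow listed peak of U1.

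At AC120136.3 the downstream LUZP1 reads numbered 15, with 6 on the gene strand and 9 opposite, from 35 to 471 bp after the gene. The mock had 4, from 158 to 383 bp. At U11 LUZP1 reads also began within the gene, 4 of them, and 6 downstream from 106 to 357 bp. The mock had 3 downstream, from 81 to 272 bp, and none within U11. At U2 the opposite strand held 6 of the 7 downstream LUZP1 reads, at 39, 73, 136, 151, 350 and 388 bp after the gene, and the gene strand held 1, at 191 bp. The mock had 1 at 459 bp. A gene-strand read that pairs with the nearest of these would begin in the U2 gene itself, where 0% of 36-base sequences are unique. At the LUZP1 pairing distance of 74 to 96 bp, partners of the reads at 136 bp and beyond would begin after the gene. There 92.2% of positions in the 500 bp were unique. The part of unique sequence in the strand counts was not tested.

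**Figure D4:**
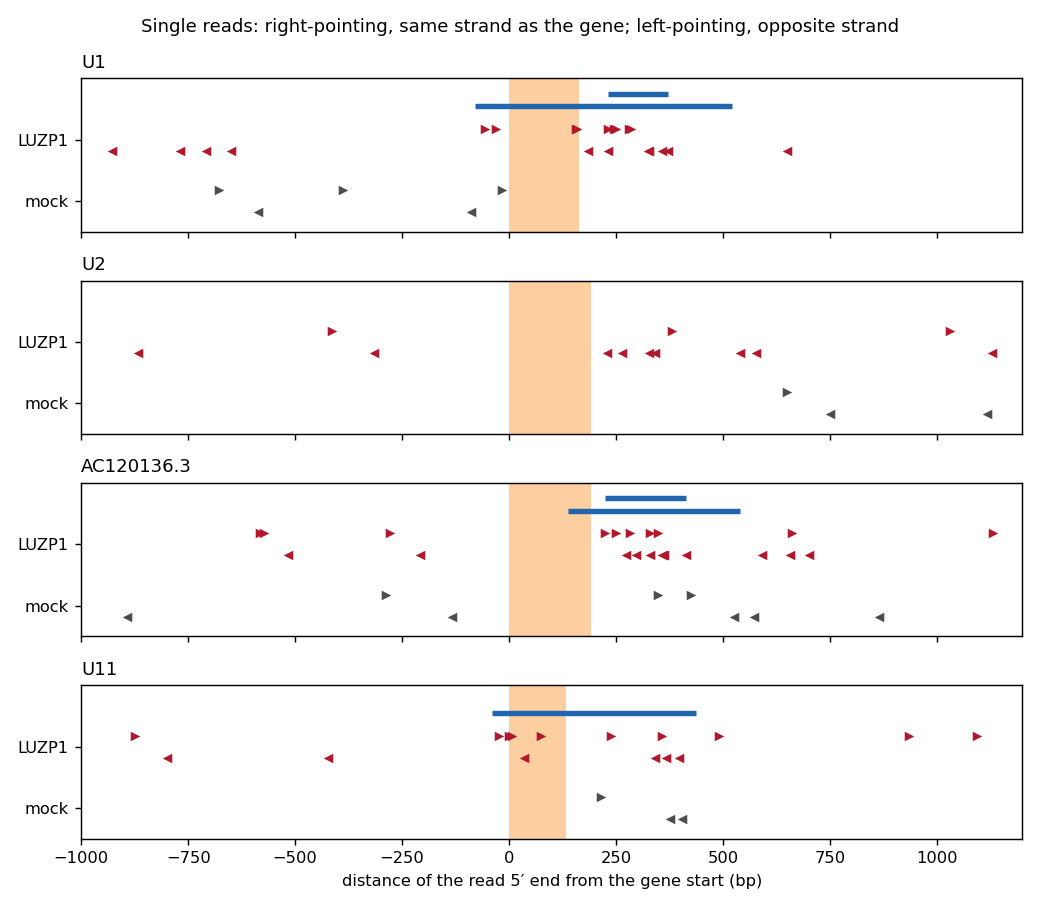
Position of the 5′ end of every read from 1000 bp before to 1000 bp after each gene, relative to the gene start in bp, with LUZP1 reads in red and mock reads in grey. Right-pointing marks are on the gene strand and left-pointing marks opposite, the gene is shaded and blue bars are listed peaks. At U1 the 5 gene-strand LUZP1 reads 68 to 122 bp after the gene lie before 4 opposite-strand reads at 161 to 209 bp.

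The authors' list of 47 LUZP1 peaks held 5 within 5 kb of the genes, at 3 of the 4 loci. U2 had none. U1 had a narrow peak of 142 bp that began 68 bp after the gene (chr11:87236600-87236741, 12 LUZP1 and 0 mock reads) and a wide one of 602 bp around it that reached 79 bp before the start. AC120136.3 had a narrow peak of 189 bp that began 35 bp after the gene (chr1:72301807-72301995, 13 and 3 reads, ratio 2.81, 0.773 to 15.4) and a wide one of 402 bp. The U11 peak of 478 bp ran from 39 bp before the start to 305 bp beyond the end. It held 10 and 3 reads, at 2.16 (0.557 to 12.2). With opposite-strand pairs counted once, the narrow peaks held 7 and 0 fragments at U1 and 10 and 3 at AC120136.3. Both narrow peaks lay wholly beyond the RNA-coding part. Inside the genes 0% of 36-base sequences at U1 and 26.3% at AC120136.3 occurred once, so few reads could be placed there. The part of this in the peak positions was not tested. The sequences under the narrow peaks, on the gene strand, are shown because they lie outside the genes.
U1: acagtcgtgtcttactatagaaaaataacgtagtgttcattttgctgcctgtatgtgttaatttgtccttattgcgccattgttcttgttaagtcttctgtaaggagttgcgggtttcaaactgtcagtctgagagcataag
AC120136.3: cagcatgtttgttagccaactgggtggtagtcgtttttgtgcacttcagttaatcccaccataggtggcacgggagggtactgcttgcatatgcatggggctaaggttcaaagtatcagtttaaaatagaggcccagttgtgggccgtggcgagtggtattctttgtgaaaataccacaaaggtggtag
They had a GC content of 38.7% at U1 and 47.6% at AC120136.3, and every 36-base sequence in both occurred once in the genome.

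Outside these stretches the libraries were alike in sum. From 1 to 5 kb on both sides, away from the listed peaks, the 4 loci had 87 LUZP1 and 57 mock reads, or 0.990 after scaling (0.701 to 1.41). The 2 sides differed. Before the genes there were 29 and 38 reads, a ratio of 0.495 (0.295 to 0.824), and after them 58 and 19, a ratio of 1.98 (1.16 to 3.52). The ratio was lower before than after the gene at each of the 4 loci: 0.973 and 1.62 at U1 (15 LUZP1 and 6 mock reads after the gene, of which 8 and 2 lay in the window of the second U1 gene), 0.531 and 1.21 at U2, 0.433 and 1.62 at AC120136.3. At U11 there were 7 and 15 reads before the gene (ratio 0.303, 0.104 to 0.789) and 15 and 0 after it. The latter gives a ratio of 3.24 when computed against a floor of 3 mock reads, and the interval's lower end was 2.33. U11 was the only locus whose outer intervals left out 1, and over all 4 kb windows of the genome 2.84% lay above 1 and 3.17% below. Without U11 the sides were at 0.621 (0.330 to 1.16) and 1.47 (0.838 to 2.67), so that both intervals included 1. Over all 1423 snRNA genes the same stretches had ratios of 0.990 (0.961 to 1.02) before and 1.02 (0.993 to 1.06) after the gene. Unique sequence differed between the 2 sides of U11, at 91.8% before and 74.4% after, and its part in the counts was not tested. Taf12, which encodes a subunit of the general transcription factor TFIID, starts 4162 bp before U11 on the opposite strand.

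The second U1 gene, which is not among the listed peaks, had 8 LUZP1 reads against 2 in the mock in its locus window, at 2.60 (0.518 to 25.1). Its ratio was the same as that of the first U1 gene on fewer reads. Of its 500 bp stretches the upstream one held 3 and 1 reads and the downstream one 6 and 2. The first U1 gene held 15 and 1 reads downstream, and the 2 intervals for the downstream ratio, 1.50 to 410 and 0.348 to 19.7, overlapped. The 5 other exact copies of the U1 sequence had no read from either library in their windows, and the median share of unique sequence over all 6 exact copies was 3.31%.

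The other snRNA genes were counted in the same locus window. AC120136.3 had more LUZP1 reads than any other of the 1423 genes, U1 came next, and 3 genes exceeded U11. U2 was passed by 10 genes and equalled by 13, although no other gene annotated under the name U2 reached its count. AC120136.1 and AC120136.2, which share the clone name of AC120136.3, lie before it on the same strand of chromosome 1. AC120136.1 had 10 LUZP1 and 7 mock reads, more LUZP1 reads than U2 but a ratio of 0.927. AC120136.2 had 3 and 2, at 0.973. A gene annotated as U2 lies before both on the same strand and went the other way. It had 5 LUZP1 reads and 1 mock read, at 3.24 (0.363 to 153). This ratio was above those of the 4 genes but rests on a single mock read. The gene held the octamer, ACCNTNA and the 3′ box. The intervals of these neighbours included 1, as did that of AC120136.3, so a difference was not detectable at this depth for any of them. By the lower bound of the interval, which takes the mock into account, U1 ranked 19, AC120136.3 36, U11 37 and U2 38. An interval above 1 was found for 7 snRNA genes, or 0.492%, and one below 1 for 2.46%. The 4 genes were not among them.

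**Figure D5:**
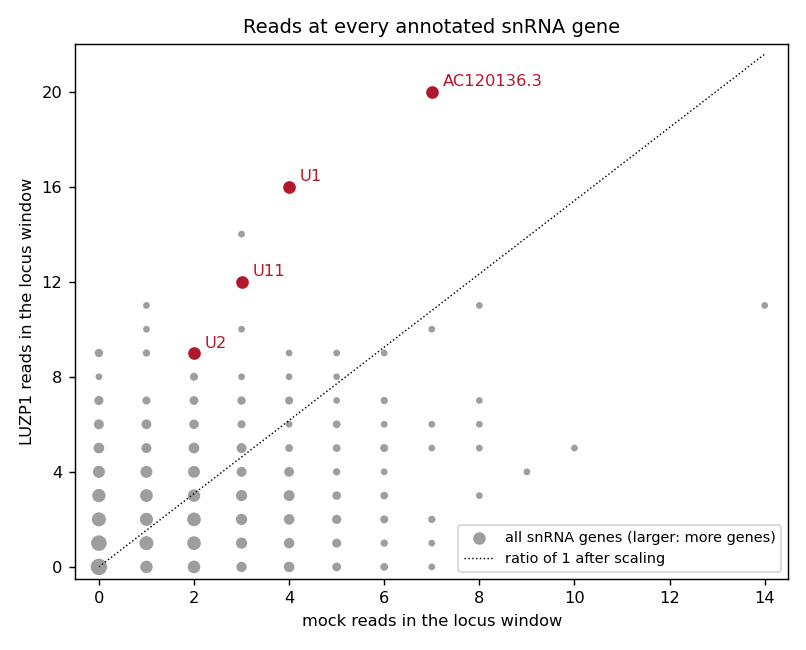
LUZP1 against mock reads in the locus window of the 1423 annotated snRNA genes, with larger grey points for more genes and the 4 genes in red; the dotted line is a ratio of 1 after scaling to total reads. AC120136.3 at 20 LUZP1 reads and U1 at 16 are the highest, and all 4 lie above the line.

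The 6 other genes with the highest lower bounds were 5 U6 genes and a U4 gene. U6 RNA forms the catalytic core of the spliceosome and is made by RNA polymerase III, and U4 RNA carries U6 into it. The U4 gene (chromosome 9, 74210417 to 74210526) and the U6 genes on chromosomes 19, 2, 3 and 7 each had 9 LUZP1 reads and 0 mock reads. This gives a ratio of 1.95 against the same floor, and the lower bound was 1.28. The U6 gene on chromosome 16 had 8 and 0, with a lower bound of 1.11. None of the 6 had a listed peak or the octamer. With opposite-strand pairs counted once they had 5 to 7 LUZP1 fragments, and no snRNA gene then had an interval above 1. The other called gene was a U12 gene (chromosome 14, 22631933 to 22632077), with 11 and 1 reads and 7.14 (1.04 to 307). U12 RNA takes the place of U2 at the minor introns that U11 recognises. A U1 gene on chromosome 3 (96132348 to 96132513), named, like the U12 gene, after its values were seen, was the only snRNA gene besides U1, AC120136.3 and U11 with a listed peak within 500 bp. It had 14 and 3 reads and 3.03 (0.845 to 16.4), a higher ratio and lower bound than the U1 gene described here, and its promoter window did not hold the octamer.

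Over all 1423 snRNA genes the ratio was 0.970 (0.919 to 1.02). Of the named families, U4 with 43 genes lay above 1, at 1.35 (1.01 to 1.83), and U5 with 10 genes below it, at 0.590 (0.394 to 0.881). The ratio was 0.935 (0.812 to 1.08) over the 205 other U1 genes, 0.828 (0.630 to 1.09) over the 50 other U2 genes and 1.62 (0.468 to 7.09) over the 4 other U11 genes. The stretch downstream of all snRNA genes had a ratio of 1.01 (0.931 to 1.09). Among the U1, U2 and U11 genes that were neither among the 4 nor at a listed peak, the 7 with ACCNTNA 65 to 50 bp before the start had 25 LUZP1 reads against 7 in the mock, at 2.32 (0.974 to 6.35). The 251 without it had 583 and 430, a ratio of 0.880 (0.775 to 0.999). The 2 intervals overlap. The U1 gene on chromosome 3 with a listed peak (14 and 3 reads) lacks the letters at this position. It was left out of the 251 through the peak list, which was made from these same reads. The letters were also picked after the sequences had been seen, so this split is a description and not a test. Split by the octamer instead, the 12 such genes that hold it had 46 and 26 reads, at 1.15 (0.695 to 1.93), and the 246 without it were at 0.887 (0.780 to 1.01). The 8 with the octamer and ACCNTNA anywhere in the searched window, which includes the first 50 bases of the gene, were at 1.26 (0.708 to 2.33). The 7 with ACCNTNA at this position comprise 3 U1 and 4 U2 genes. Of their reads, 8 and 2 are those of the second U1 gene, which lies within the 5 kb taken after U1. Another U2 gene of chromosome 11 (chr11:101503062-101503252) gave 8 and 2 more. Over all families made by RNA polymerase II, the 15 genes with the letters at this position had a ratio of 1.23 (0.807 to 1.89).

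The protein genes of the pathway were counted within 500 bp of their starts. For snRNA transcription (SNAPc subunits, the TATA-binding protein Tbp, the octamer factor gene Pou2f1, Zfp143, Ell and Integrator subunits) 20 of 20 symbols matched, and the starts together held 83 and 50 reads at a ratio of 1.08 (0.749 to 1.56). For proteins of the U1, U2, U11 and common Sm particles 20 of 20 matched, with 73 and 52 reads and a ratio of 0.911 (0.630 to 1.33). Counts per start ran from 1 to 14 and from 1 to 7 LUZP1 reads, with a median of 4 in both lists. An interval above or below 1 was found for 0 of the 40 starts, against 1.06% above and 1.61% below among all 22367 protein-coding starts, whose ratio was 1.17 (1.16 to 1.19).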

How the data were processed

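Per the series' design text, the authors sequenced the DNA on an Illumina Genome Analyzer II, aligned it to mouse mm9 with Eland allowing 1 mismatch, and called peaks with MACS. Per the same text, peaks were kept at 100 to 1000 bp and masked for repeats. The sources used here do not give tool versions or say whether the mock entered the peak calling. The deposited read counts are 1 per line, with reads of 36 bp, and no start and strand occurs more than once within a library. The deposited peak list gives positions without any score, taken as 1-based, and was made from 1 library.

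The reference NCBIM37 (mm9) and GENCODE mouse release 1 were used. The 4 genes, the motifs and the gene lists were chosen with earlier results of these data known. Counting and intervals were computed in Python 3.11.15 with scipy 1.17.1 and tested on simulated data. Unique sequence means an exact match once in the genome on either strand, and mismatches were not considered. With opposite-strand pairs counted once, a plus and a minus read 74 to 96 bp (LUZP1) or 150 to 175 bp (mock) apart were joined, which left 3631888 and 2246896 fragments. Named genes were the 4, the 6 other snRNA genes with the highest lower bound in the locus window, and list genes with an interval that left out 1. The 2 ends of 1 fragment, both counted unless pairs are joined, are not independent, so intervals are too narrow.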

Additional observations from a re-analysis of the deposited data

How the results depend on the processing

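The ratio of the 4 loci in the locus window, 2.31, stayed between 2.08 and 2.70 under the other extensions, scalings and window widths and without each locus in turn, with every interval above 1. The ratios of single loci stayed above 1 in all 32 alternatives. Their intervals left out 1 in 2 of these, for U2 with 250 bp on each side (lower end 1.11) and for U11 with 1000 bp on each side (lower end 1.06). The 3 called bins of 250 bp became 1 with bins of 500 bp and 0 with 5′ ends only. The 7 snRNA genes with an interval above 1 became 0 with opposite-strand pairs counted once and 27 with 1000 bp on each side. Of the 5 listed peaks, 2 are left in the part of the list with narrow peaks. With pairs counted once, a choice made after seeing the data, the downstream ratio was 2.47 (1.22 to 5.55) and that of U1 alone 6.19 (0.880 to 268), an interval that includes 1. No paired analysis was possible because there is 1 library per group, and for the same reason no replicate could be left out. Depth limits single loci: a count of 8 LUZP1 reads against 0 is the fewest that puts an interval above 1.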
